A study of Homo sapiens with 12 samples.

Results

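The 4 arrays of HBL-1 form the smaller arm of a series of 12 expression arrays, the other 8 being of U-H01, a Hodgkin lymphoma line. HBL-1 is an established human line of diffuse large B-cell lymphoma of the activated B-cell-like kind. The 4 arrays were taken by their titles, HBL-1 C Un1 and Un2 for uninduced cells and HBL-1 C D1 and D2 for induced cells. All 4 carried a hairpin construct that doxycycline switches on, and only the induced cells received doxycycline. The treatment labels of the induced arrays read Day1 and Day2, and Un1 was paired with D1 and Un2 with D2, which gives 2 pairs, 1 at each of 2 time points. The labels name hairpins against RelB and cRel and do not say which one the letter C stands for. An effect of doxycycline and an effect of the hairpin cannot be told apart in these arrays, since no HBL-1 array used here held doxycycline with another hairpin. The U-H01 arrays, of populations B1 and B2 with and without induction at 2 time points, enter through the spread between arrays and the choice of probe sets. The labels name no separate cultures within a side, and the spread that p-values are measured against may therefore be technical. Values are deposited log2 levels, and a change is the induced minus the uninduced level on the log2 scale, printed with its standard error (SE).

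NF-kB is a family of transcription factors built from 5 subunits, which bind as dimers to kappa-B sites in promoters and enhancers. Inhibitor proteins hold the dimers in the cytoplasm, and signalling from the B-cell receptor or from Toll-like receptors releases them. Lymphomas of the activated B-cell-like kind are known for a pathway that is switched on all the time. The inhibitor gene NFKBIA is itself a target of NF-kB and closes a feedback loop. The subunit cRel, encoded by REL, is most abundant in lymphoid cells and is needed for B-cell proliferation and survival.

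The B-cell markers were high, and the markers that separate the kinds of this lymphoma were mixed. Over the 4 arrays MS4A1, the gene of CD20, lay between 10.90 and 11.05, CD79A between 11.24 and 11.33 and IRF4, a factor typical of this kind of lymphoma, between 10.58 and 10.63. Of 4 germinal-centre genes, MME and MYBL1 stayed between 3.42 and 3.92, below the lower quartile of every HBL-1 array, which was 4.24 or more. LMO2 lay between 5.37 and 5.56 and BCL6 between 8.17 and 8.55, so BCL6 was not low. Levels of induced and uninduced arrays correlated at 0.992 to 0.994 across genes, against 0.996 for the uninduced and 0.995 for the induced arrays with each other. Other markers measured were 17 of T or NK cells, 14 myeloid ones and 16 of stromal, endothelial or epithelial cells. Of these markers 0 passed the test described below, and 2 had an unadjusted p under 0.05, both higher, against 5.22% of all genes. Their levels were not all low. The T-cell gene CD3D ran from 4.61 to 4.75 and the myeloid gene LYZ from 3.06 to 3.25. In the T and NK list GZMB ran from 8.21 to 8.87 and CD247 from 7.50 to 8.02. PRF1, the perforin gene, was at 7.32 and 7.56 without and at 8.07 and 7.86 with induction, and MRC1, a macrophage lectin gene, at 7.88 and 7.90 and at 8.32 and 8.80. Neither passed by limma, with adjusted p of 0.124 and 0.0575. The part of such cells in the results was not tested.

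REL was lower in the induced array of both pairs. Its level was 9.70 in Un1 and 9.78 in Un2 and 9.13 in D1 and 9.37 in D2, so that the sides did not overlap. Among all genes 21.6% also had the induced arrays lower without overlap. The change of -0.49 ± 0.12 (SE, n = 2 a side) had a 95% interval of -0.75 to -0.22 and missed the threshold over all genes (adjusted p = 0.121 by limma). REL passed without the 4 U-H01 arrays labelled induced (adjusted p = 0.0477 by limma) and with HBL-1 fitted alone, and missed in every other fit tried. Where those other fits kept all 4 HBL-1 arrays, its adjusted p by limma ran from 0.0629 to 0.234. RELB, the other gene named as a target, was at 7.67 and 7.67 without and at 7.57 and 7.40 with induction, a change of -0.19 ± 0.12. The RELB interval ran from -0.46 to 0.09 and included 0. RELA at -0.17, NFKB2 at -0.17 and NFKB1 at 0.23 did not pass either, with adjusted p of 0.629 or more. Of the 5 subunit genes 4 were lower and 1, NFKB1, was higher in both pairs, against 30.3% lower and 26.6% higher of all genes. Directions in all that follows rest on the array labels.

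**Figure D1:**
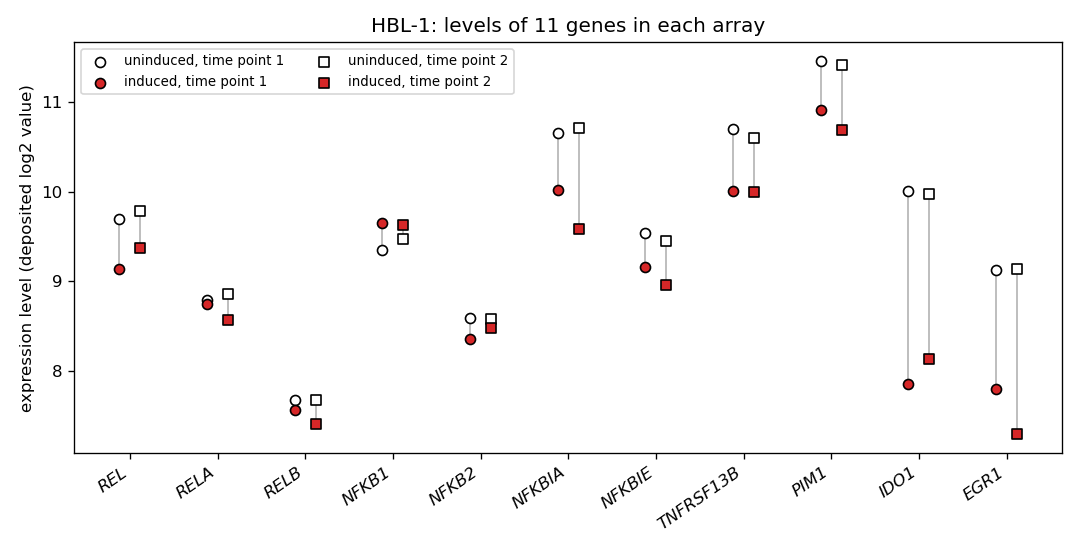
Levels of 11 genes in the 4 HBL-1 arrays, as deposited log2 values on the vertical axis. Open symbols are uninduced and filled ones induced arrays, circles time point 1 and squares time point 2, and a line joins each pair. IDO1 and EGR1 show the longest lines, while REL goes from 9.70 to 9.13 and from 9.78 to 9.37.

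Over 18417 genes tested, 112 passed the test by limma (adjusted p under 0.05), which is 0.608% of them. Of these, 77 rose (0.418%) and 35 fell (0.19%). The changes of the rises ran from 0.54 to 1.89 with a median of 0.83, and those of the falls from -0.57 to -1.99 with a median of -0.89. In 36 genes the change was over 2-fold, 21 of them higher and 15 lower. In all 112, which the test selects for such separation, the induced and uninduced arrays did not overlap, which was also so for 41.3% of all genes, 19.7% with the induced arrays higher and 21.6% with them lower. Without adjustment 9.81% of all genes had a p under 0.05, 5.22% higher and 4.59% lower. Regardless of any test, 94 genes were over 1.5-fold higher in both pairs (0.51%) and 52 over 1.5-fold lower in both (0.282%), against 5 that moved over 1.5-fold in opposite directions (0.0271%). Past 2-fold the counts were 14 (0.076%), 10 (0.0543%) and 1 (0.00543%). Of the 146 genes past 1.5-fold the same way in both pairs, 89 were among the 112. The gene lists used below were written with earlier results of these data known, so their called shares are not independent evidence.

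These calls lean on both pairs, and the spread they are measured against leans on the other line. With 1 array left out, its partner carries no information on induction and only 1 pair remains. All 112 genes kept their direction in these fits. That was fixed in advance, since their induced and uninduced arrays did not overlap. In each of these fits 7 genes passed: MPZL2, MYO1E, CYTH4, SMARCA1, CYTIP, CD36 and IDO1. S100A10, S100A11, TPH1, PPP6R1, ZBTB38, H2BC12 and EGR1 passed without Un1 or D1 alone, and ROCK1P1 without Un2 or D2 alone. The other 97 genes passed in none of them. HBL-1 by itself leaves 1 residual degree of freedom of the 5 in the model, so the spread comes mostly from U-H01. Without the 4 U-H01 arrays labelled induced, 322 genes passed, all 112 among them. With the 4 HBL-1 arrays fitted alone, on that 1 residual degree of freedom, 945 passed, again with all 112 among them. With 2 arrays a side an exact permutation test of a single gene cannot go below a two-sided p of 0.333.

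**Figure D2:**
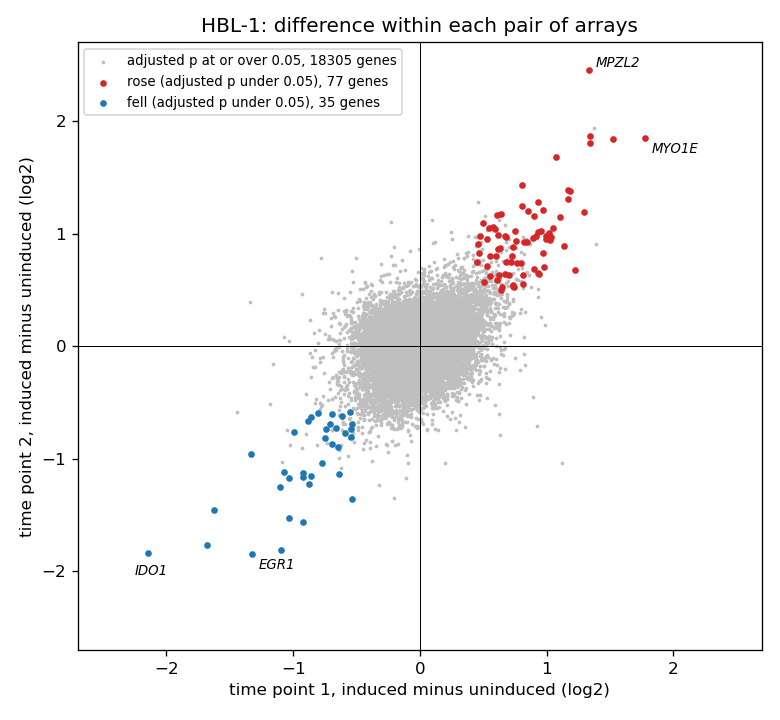
Difference between the induced and the uninduced array for each of 18417 genes, at time point 1 on the horizontal and at time point 2 on the vertical axis, in log2 units. Red points are the 77 genes that rose and blue points the 35 that fell past the threshold, and all 112 lie in the 2 quadrants where both pairs moved the same way.

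The 3 genes that fell furthest were IDO1, PIEZO2 and EGR1. IDO1, which encodes the enzyme that opens the kynurenine pathway, was at 10.00 in Un1 and 9.97 in Un2 against 7.86 in D1 and 8.13 in D2. It fell by 1.99 ± 0.16 or 3.98-fold (adjusted p = 0.000208). Of 19 measured genes in the interferon-gamma and tryptophan-kynurenine list it was the 1 that passed, 5.26% against 0.608% of all genes. The neighbouring paralog IDO2 was at 5.61 and 5.59 in pair 1 and at 6.23 and 5.50 in pair 2 (adjusted p = 0.462). The aryl hydrocarbon receptor targets CYP1A1 and TIPARP, whose receptor binds kynurenine, were higher in both pairs, at 0.49 and 0.40, and did not pass. The receptor gene AHR itself was dim, between 3.32 and 3.58, under the lower quartile of every HBL-1 array. TPH1, the tryptophan hydroxylase of serotonin synthesis, fell by 0.95. PIEZO2, a mechanosensitive ion channel, fell by 1.72 ± 0.20, from 8.53 and 8.70 to 6.85 and 6.93. Its differences in pair 1 and pair 2 were -1.68 and -1.77.

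EGR1, an immediate-early zinc finger factor induced by growth factor and antigen receptor signals, was at 9.12 and 9.14 without and at 7.80 and 7.29 with induction. It fell by 1.58 ± 0.15 (adjusted p = 0.00062). Of 23 immediate-early and AP-1 genes measured, 1 fell and 0 rose, 4.35% called against 0.608% of all genes. In both pairs 14 were lower and 3 higher, 60.9% and 13.0%, against 30.3% and 26.6% of all genes. EGR3 at -0.30 and FOSB at -0.29 were lower and NR4A3 at 0.53 and ZFP36 at 0.38 higher in both pairs without passing. DUSP5, a phosphatase that acts on ERK in the nucleus, rose by 1.38 ± 0.22, from 6.93 and 6.73 to 8.01 and 8.41. It was the 1 of 18 ERK feedback genes that passed, 5.56% against 0.608% of all genes. DUSP7 at -0.49 and DUSP2 at -0.53 did not pass.

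The EGR1 promoter is shown because its 250 bases before the start hold a pair of CArG boxes, the element that serum response factor binds in immediate-early genes. MYO1E, whose rise was among the largest, holds 1. The windows come from RefSeq (GRCh38.p14) and are chr5:138465229-138465478 on the plus strand and chr15:59372872-59373121 on the minus strand, with the matches in capitals. The CArG consensus, searched by name on both strands, occurred in 1.16% of 35116 such windows, taken without a filter for tested genes, where a gene can have several. It occurred in 4 of 110 windows of risen genes (3.64%), those of ROCK2, CXCR4, MYO1E and MKNK2, and in 1 of 41 windows of fallen genes (2.44%). Windows existed for 14237 of the 18417 tested genes and for 89 of the 112 called ones, 61 risen and 28 fallen. A match describes the letters alone.
EGR1: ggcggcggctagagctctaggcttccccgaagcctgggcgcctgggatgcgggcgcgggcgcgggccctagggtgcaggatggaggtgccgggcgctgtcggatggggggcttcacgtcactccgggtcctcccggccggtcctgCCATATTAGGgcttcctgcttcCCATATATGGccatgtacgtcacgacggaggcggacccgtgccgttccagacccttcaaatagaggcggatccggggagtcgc
MYO1E: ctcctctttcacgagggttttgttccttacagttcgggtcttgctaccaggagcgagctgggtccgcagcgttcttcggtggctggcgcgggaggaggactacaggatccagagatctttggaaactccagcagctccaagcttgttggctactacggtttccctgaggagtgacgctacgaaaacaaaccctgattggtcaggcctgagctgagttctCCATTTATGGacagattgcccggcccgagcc

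Other large falls were in NLRP11, a member of the NLR family of innate immune regulators, by 1.54, and in ZBTB38, a zinc finger protein that binds methylated DNA, by 1.28. H2BC12, a histone H2B gene, fell by 1.45 ± 0.17, with -1.10 in pair 1 and -1.81 in pair 2. It was the 1 of 53 replication-dependent histone genes that passed, 1.89% against 0.608% of all genes. Near-identical copies of these histone genes can share signal. The growth factor gene PDGFD fell by 1.24 and TGFBR3, a co-receptor of TGF-beta, fell by 1.18. TGFBR3 was at 8.45 and 8.53 without and at 7.34 and 7.28 with induction. It was the 1 of 28 TGF-beta and BMP genes that passed, 3.57% against 0.608% of all genes. SORL1, a sorting receptor of endosomes, fell by 1.09, NUCB2, a calcium-binding protein gene, fell by 1.02, PPP6R1, a subunit of protein phosphatase 6, fell by 1.01, BAIAP2L1, which shapes membrane and actin, fell by 1.04 and CRIP3, a LIM-domain gene, fell by 1.05. The pseudogenes ROCK1P1 and DPY19L2P2 fell by 1.14 and fell by 1.10, and their probe sets can also bind RNA of the parent genes. ROCK1, the parent of the first, was at 0.21 and did not pass.

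**Figure D3:**
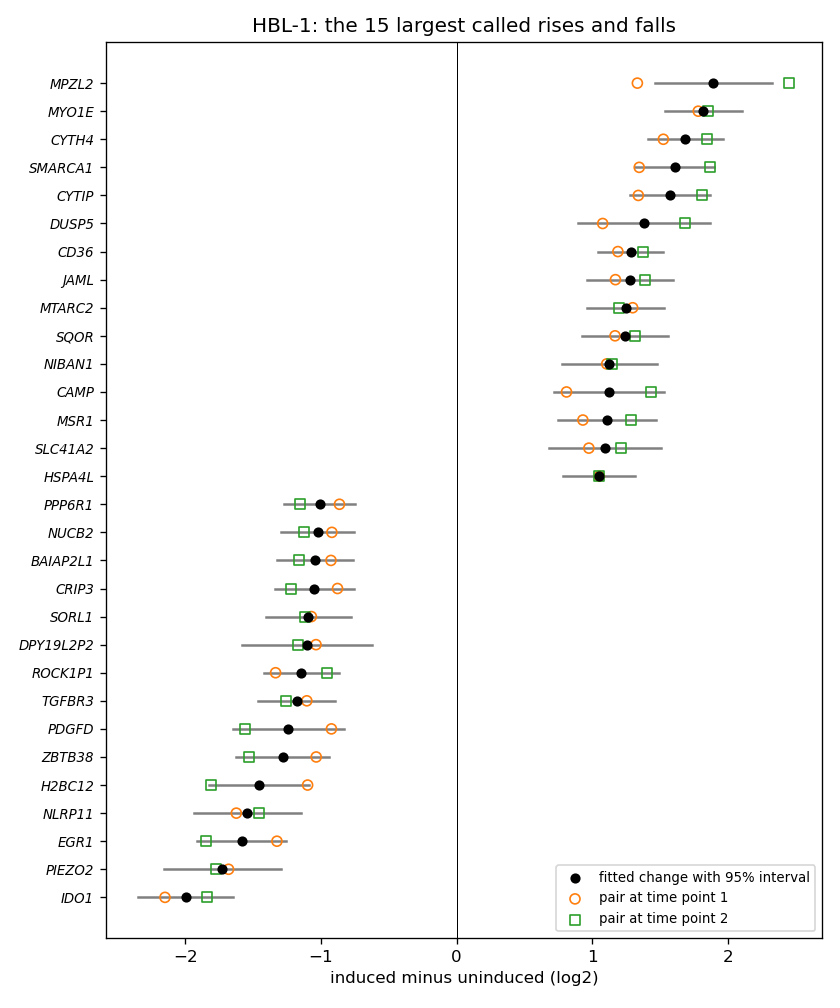
Changes of the 15 genes that rose most and the 15 that fell most among those past the threshold, in log2 units on the horizontal axis. Black points are fitted changes with their 95% intervals, orange circles the pair at time point 1 and green squares the pair at time point 2. For MPZL2 the pairs stand apart, at 1.33 and 2.45, and for HSPA4L they coincide at 1.05 and 1.05.

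The rises with the largest changes were in MPZL2, MYO1E and CYTH4. MPZL2, an immunoglobulin-type adhesion molecule, was at 5.42 in Un1 and 5.08 in Un2 against 6.75 in D1 and 7.54 in D2. It rose by 1.89 ± 0.20 or 3.71-fold (adjusted p = 0.00126). JAML, an adhesion molecule of leukocytes, rose by 1.28, and its binding partner CXADR was at 0.49 in the same direction without passing (adjusted p = 0.165). CD36, a scavenger receptor that takes up fatty acids and binds thrombospondin, rose from 7.34 and 7.68 to 8.53 and 9.06, by 1.28 ± 0.11. The integrin chain gene ITGAV rose by 0.82. In the list of 34 measured integrin and adhesion genes, 4 rose and 0 fell, a share of 11.8% against 0.608% of all genes, with a median change of 0.11 against -0.01. MPZL2, JAML and CD36 were placed in that list with their rises known, so the share is not independent evidence.

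CYTH4 and CYTIP both belong to the cytohesin system, in which cytohesins activate ARF GTPases and bind the tail of integrin beta 2, and CYTIP binds a cytohesin and detaches it. CYTH4 was at 6.38 and 6.40 without and at 7.90 and 8.24 with induction, a rise of 1.68 ± 0.13. CYTIP rose by 1.57 ± 0.14, to 7.34 in D1 and 7.80 in D2, which is 1.34 and 1.81 above Un1 and Un2. Of 17 genes listed for integrin activation and cytohesins 2 rose and 0 fell (11.8%), and both were placed there with their rises known. CYTH1, the cytohesin known from lymphocytes, was at -0.30 and did not pass. ADAP1 and ARAP2, which switch ARF GTPases off, rose by 0.95 and 0.79.

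MYO1E, a myosin that links membrane to actin, rose by 1.82 ± 0.13 or 3.52-fold, from 6.03 and 6.18 to 7.82 and 8.04. MYH10, a heavy chain of non-muscle myosin, rose by 0.75, and ROCK2, the kinase that activates such myosins downstream of RhoA, rose by 0.54. Of 31 actin and myosin genes measured 2 rose and 0 fell, and 17 were higher and 4 lower in both pairs. These are shares of 6.45% called, 54.8% and 12.9%, against 0.608%, 26.6% and 30.3% of all genes. This list too was written with earlier results known, so its shares are not independent evidence. LSP1, an actin-binding protein of leukocytes, was at 0.70 (adjusted p = 0.134). Single genes that rose and stand in no actin list were CYFIP1, a subunit of the WAVE complex, by 1.03 in pair 1 and 0.97 in pair 2, FNBP1L, which couples membrane curvature to actin, by a fitted 0.89, and MTSS1, which binds actin and membrane, by 0.89. ARHGAP18, which switches RhoA off, rose by 0.68. AHNAK, a giant scaffold protein that binds annexin A2 and S100A10, rose by 0.80.

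S100 proteins and annexins are partners at the membrane, many but not all of them dependent on calcium, and 3 of 30 measured rose while 0 fell (10% against 0.608%). S100A10 was at 8.28 and 8.34 without and at 9.08 and 9.59 with induction, a rise of 1.02 ± 0.13. S100A11 rose by 1.03 and ANXA4 by 1.01. The median over the family was 0.04.

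In the myeloid marker list 0 of 14 passed. MSR1, a scavenger receptor of macrophages, was at 4.50 and 4.70 without and at 5.43 and 5.98 with induction, a rise of 1.11. CAMP, the gene of the antimicrobial peptide cathelicidin, rose by 1.12, with 0.81 in pair 1 and 1.43 in pair 2. PLD4, an endosomal nuclease, rose by 1.03, MERTK, a receptor for the uptake of dying cells, by 0.73, SIGLEC6, a sialic acid receptor, by 0.74 and IL18, an interleukin activated by inflammasomes, by 0.99. IL18 started from 3.97 and 4.42, near the array lower quartiles of 4.24 to 4.26.

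CXCR4, the chemokine receptor that guides B cells to CXCL12, rose 2-fold, from 8.28 and 8.44 to 9.29 and 9.42. Of 22 chemokine and lipid receptors measured it was the 1 that passed, 4.55% against 0.608% of all genes. GPR183, a receptor that positions B cells in follicles, was over 1.5-fold higher in both pairs, at 0.77 and 0.68, with an adjusted p of 0.435. SEMA3A, a secreted guidance cue, rose by 0.90. CCR7, the receptor for lymph node chemokines, was at 0.61 and did not pass (adjusted p = 0.112).

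Among signalling genes JAK2, the tyrosine kinase of cytokine receptors, rose by 0.74 ± 0.12, from 5.84 and 5.94 to 6.36 and 6.90. IFNAR2, a chain of the type I interferon receptor, rose by 0.72. NOTCH2, the Notch receptor of mature B cells, rose by 0.71, and DTX4, a Deltex ubiquitin ligase of the same pathway, by 0.68. RBPJ, the DNA-binding partner of Notch, was over 1.5-fold higher in both pairs, at 0.60 and 0.76, and DTX1 was at 0.56, with adjusted p of 0.141 and 0.107. Of 27 Notch and Wnt genes 1 rose and 0 fell, and 15 were higher and 4 lower in both pairs. These are shares of 3.7% called, 55.6% and 14.8%, against 0.608%, 26.6% and 30.3% of all genes. The called share is a single gene of a list written with earlier results known. The kinase genes MKNK2 and PRKACB rose by 0.99 and 0.66, and ATP2B1, a calcium pump of the plasma membrane, by 0.62.

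Of 32 chromatin genes listed 1 rose and 0 fell, 3.12% called against 0.608% of all genes. SMARCA1, an ISWI remodelling ATPase, rose by 1.61 ± 0.13, and outside the list rose KAT2B, a histone acetyltransferase, by 0.97, and ZEB2, a repressor, by 0.84. SMARCA1 was at 5.37 and 5.43 without and at 6.71 and 7.30 with induction. FTO, an RNA demethylase, rose by 0.57 and CELF2, an RNA-binding splicing regulator, by 0.60. TRIM22 and SAMHD1, which restrict viruses, rose by 0.91 and 0.59.

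Metabolic genes that rose included 2 mitochondrial oxidoreductases. SQOR, which oxidises hydrogen sulfide, rose from 6.51 and 6.37 to 7.67 and 7.68, by 1.24, and MTARC2, a molybdenum enzyme, rose by 1.25. IDH1, the cytosolic isocitrate dehydrogenase, rose by 0.87 ± 0.14, from 9.07 and 9.12 to 9.89 and 10.05. ELOVL7, a fatty acid elongase, rose by 0.99, PLA2G4A, the phospholipase that frees arachidonic acid, by 0.93 and the phospholipase gene PLAAT3 by 0.83. PLA2G4A is a dim gene here, at 3.55 and 3.58 without and 4.44 and 4.53 with induction. It is 1 of 7 risen genes whose uninduced mean lay under the lower quartile, with CD24, IL18, ERICH3, SYCP2L, TMEM144 and ZNF709. HSPA4L and DNAJB4, chaperone genes, rose by 1.05 and 1.01, SLC41A2, a magnesium transporter, by 1.09 and NIBAN1, a stress-induced gene, by 1.13. KHK, the fructose kinase, fell by 0.77, ASRGL1, an asparaginase-like enzyme, fell by 0.90 and MRPS10, a mitochondrial ribosome protein, fell by 0.78. MRPS10 was the 1 of 26 mitochondrial translation genes that passed, 3.85% against 0.608% of all genes. In both pairs 12 of them were lower and 5 higher, 46.2% and 19.2% against 30.3% and 26.6% of all genes.

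NFKBIA was the 1 of 18 NF-kB inhibitor and feedback genes that passed, 5.56% against 0.608% of all genes. Its level was 10.65 in Un1 and 10.71 in Un2 against 10.01 in D1 and 9.58 in D2, and it fell by 0.89 ± 0.13 or 1.85-fold (adjusted p = 0.0111). In pair 2 the difference of -1.13 was larger than the -0.64 of pair 1, which did not pass as a difference between pairs (adjusted p = 0.999). The related inhibitor genes NFKBIE and NFKBID were lower in both pairs, at -0.44 and -0.50, and BCL3, an IkB-family co-activator, was higher at 0.31. None of these 3 passed, with adjusted p of 0.193, 0.29 and 0.473. The list median was 0.00, with 6 members lower and 6 higher in both pairs, 33.3% each against 30.3% and 26.6% of all genes.

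The promoters of REL and NFKBIA are shown because both hold the kappa-B consensus in the 250 bases before the start. The windows are chr2:60881324-60881573 on the plus strand and chr14:35404750-35404999 on the minus strand of GRCh38.p14, from RefSeq, with matches in capitals. In REL there are 2 overlapping matches, 46 and 47 bases before the start. In NFKBIA it lies 81 bases before the start. The consensus, searched by name on both strands, occurred in 5.21% of the same 35116 windows, taken without a filter for tested genes. It occurred in 1 of 41 windows of fallen genes (2.44%), that of NFKBIA, and in 10 of 110 windows of risen genes (9.09%), which belong to 7 genes (NOTCH2, ANXA4, DZIP3, CD24, CELF2, AHNAK and CYFIP1).
REL: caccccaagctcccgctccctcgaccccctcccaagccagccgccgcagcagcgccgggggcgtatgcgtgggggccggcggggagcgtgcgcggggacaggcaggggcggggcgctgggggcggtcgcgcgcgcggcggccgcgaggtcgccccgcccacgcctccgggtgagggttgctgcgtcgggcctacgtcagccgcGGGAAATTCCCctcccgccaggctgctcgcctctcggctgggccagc
NFKBIA: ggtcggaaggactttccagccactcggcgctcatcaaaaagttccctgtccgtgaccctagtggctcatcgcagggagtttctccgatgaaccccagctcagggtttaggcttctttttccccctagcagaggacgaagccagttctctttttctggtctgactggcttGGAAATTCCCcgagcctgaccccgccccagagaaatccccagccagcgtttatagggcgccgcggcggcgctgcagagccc

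Further along the pathway TNFRSF13B, the gene of the TACI receptor for BAFF and APRIL, fell by 0.65 ± 0.11, from 10.70 and 10.59 to 10.00 and 9.99. TNFRSF17, the gene of the related receptor BCMA, was over 2-fold lower in both pairs, at -1.09 and -1.03, and did not pass with a standard error of 0.33 (adjusted p = 0.23). PIM1, a kinase induced by NF-kB and STAT signals, fell by 0.64, from 11.46 and 11.41 to 10.91 and 10.68. PIM1 lost its call with each array centred on its median and with a replicate block for every pair. PTPN11, the phosphatase SHP2, fell by 0.57. Of 24 genes of the activating pathway 1 passed, TNFRSF13B, 4.17% against 0.608% of all genes. Of 25 genes typical of activated B-cell-like lymphoma 2 fell and 0 rose, 8% against 0.608%. In both pairs 12 were lower and 8 higher, 48% and 32% against 30.3% and 26.6%. The list was written with earlier results known, so these shares are not independent evidence.

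Of 22 cytokine and chemokine targets 0 passed by limma, while 4 had an unadjusted p under 0.05, all lower, against 4.59% of all genes. These 4 were TNF at -0.42, IL10 at -0.65, CCL22 at -0.45 and CSF1 at -0.32. IL10 was at 6.96 and 7.19 without and at 6.57 and 6.28 with induction. Of 22 surface targets 1 passed, CXCR4, which rose (4.55% called against 0.608% of all genes). CD83 at -0.46 and CD80 at -0.48, activation markers of antigen-presenting cells, were lower without passing. Of 11 survival targets 0 passed and 0 had an unadjusted p under 0.05, and BCL2L1, an inhibitor of apoptosis, was at -0.28 and BCL2A1, another, at 0.17.

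Of 22 measured B-cell identity genes 1 rose and 0 fell, 4.55% called against 0.608% of all genes. CD24, a surface glycoprotein of B-cell precursors, rose by 0.95 from 3.86 and 4.04 to 5.09 and 4.72. SPIB, an ETS factor of this lymphoma kind, was at 0.55 and IKZF1 at -0.30, and neither passed. Of 24 B-cell receptor signalling genes and 14 plasma-cell genes 0 passed, with 4 and 2 at an unadjusted p under 0.05. Among all genes the share at that p was 9.81%. The plasma-cell gene JCHAIN was over 1.5-fold higher in both pairs, at 0.87 and 0.91 (adjusted p = 0.121). Of 13 MHC class II genes 0 passed and 3 had an unadjusted p under 0.05, all lower, against 4.59% of all genes. In both pairs 7 were lower and 1 higher, 53.8% and 7.69% against 30.3% and 26.6% of all genes. RFX5, which activates these genes, was at -0.44 and HLA-DOB at -0.49.

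Of 28 genes of DNA replication and the G1/S transition, 0 passed by limma and 11 had an unadjusted p under 0.05, all lower. Of all genes 4.59% were lower at that p. In both pairs 26 were lower (20 with each array centred on its median) and 1, CCNE1, higher, 92.9% and 3.57% against 30.3% and 26.6% of all genes. The median change was -0.28 against -0.01, made up of -0.12 in pair 1 and -0.45 in pair 2, and no test of that difference was run. E2F1, the factor of the G1/S switch, was at 8.24 and 8.21 without and at 7.84 and 7.77 with induction. GINS2, a part of the replicative helicase, was at -0.58, MCM6, another, at -0.42 and PCNA, the sliding clamp, at -0.49, with adjusted p of 0.109, 0.127 and 0.26. Mitosis genes had a median of -0.13, with 0.01 in pair 1 and -0.25 in pair 2, and 0 of 28 passed (1 at an unadjusted p under 0.05).

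**Figure D4:**
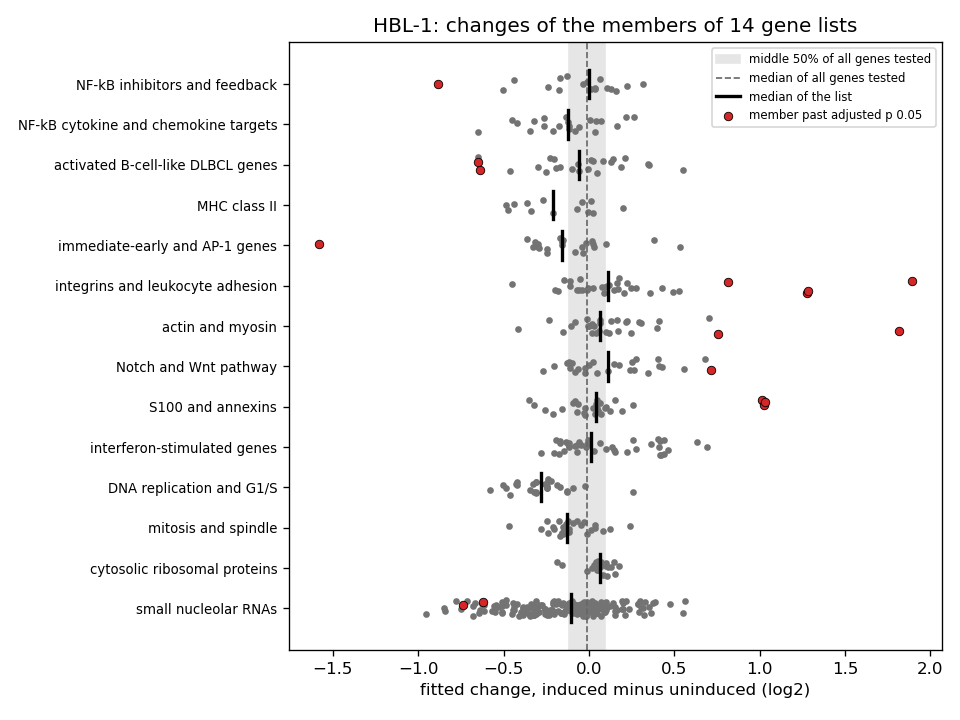
Fitted changes of the members of 14 gene lists, in log2 units on the horizontal axis. Each grey point is a gene, red points passed the test, black bars are list medians and the shaded band holds the middle 50% of all genes, from -0.11 to 0.09. The replication list lies left of the band at a median of -0.28, and the adhesion list holds 4 red points to the right.

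Small nucleolar RNAs guide the modification of ribosomal and spliceosomal RNA. Of 192 measured 2 fell, SNORD1A at -0.74 and SNORD49A at -0.62, and 0 rose (1.04% against 0.608%). An unadjusted p under 0.05 was seen in 50 lower and 10 higher ones, against 4.59% and 5.22% of all genes. In both pairs 88 were lower and 25 higher, 45.8% and 13.0% against 30.3% and 26.6% of all genes. Some lie in introns and share their transcripts, so they do not vary independently. Past 1.5-fold in both pairs without passing were SNORD20, SNORD12C, SNORD117, SNORD82, SNORD43 and SNORA13, at -0.95, -0.85, -0.75, -0.72, -0.64 and -0.68. Of the 2 that passed, SNORD1A lost its call under quantile normalization and under median centring. It also lost it without the replicate block and with a block for every pair. Of 23 cytosolic ribosomal protein genes 16 were higher and 2 lower in both pairs, 69.6% and 8.7% against 26.6% and 30.3% of all genes. Their median was 0.07, with 0 past the test (0 at an unadjusted p under 0.05).

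MIR17HG, the host transcript of a cluster of miRNAs that begins with miR-17, fell by 0.78 ± 0.12, from 7.49 and 7.65 to 6.80 and 6.79. The cluster is known in B-cell lymphoma as a MYC target that favours proliferation. Its mature miRNAs are shown because the probe set reads the host and not the miRNAs themselves, whose levels were not measured here. The sequences are from RefSeq (GRCh38.p14, chromosome 13), with the seed, bases 2 to 8, in capitals. The first pair below shares 1 seed and the second another.
hsa-miR-17-5p: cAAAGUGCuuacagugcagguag
hsa-miR-20a-5p: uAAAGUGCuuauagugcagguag
hsa-miR-19a-3p: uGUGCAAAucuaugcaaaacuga
hsa-miR-19b-3p: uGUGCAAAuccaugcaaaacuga
hsa-miR-18a-5p: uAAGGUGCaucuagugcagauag
hsa-miR-92a-3p: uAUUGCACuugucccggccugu

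In the list of interferon-stimulated genes 0 of 40 passed by limma, while 11 had an unadjusted p under 0.05, all higher. Of all genes 5.22% were higher at that p. TRIM22 and SAMHD1, the virus-restricting genes named above that rose by 0.91 and 0.59, are not in this list. MX1, a GTPase against viruses, was at 6.49 and 6.68 without and at 7.29 and 7.26 with induction, a change of 0.69 (adjusted p = 0.093). IFI44L was at 0.64, EIF2AK2, the kinase that senses double-stranded RNA, at 0.46, OAS1, another such sensor, at 0.44 and RIGI at 0.41. In both pairs 18 of the 40 were higher and 8 lower, 45% and 20% against 26.6% and 30.3% of all genes. The median was 0.01.

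Of the 112 genes, 44 stood in at least 1 of the 68 gene lists and 68 in none. Among the latter, FBXW11, a beta-TrCP subunit of the ubiquitin ligase that marks phosphorylated NF-kB inhibitors for destruction, rose by 0.65 ± 0.13. THEMIS2, an adaptor of B-cell receptor signalling, rose by 0.79, and NECTIN1, an adhesion molecule, by 0.64. ACBD5, a tether of peroxisomes, rose by 0.60, DZIP3, a ubiquitin ligase, by 0.85 and PMEL, a melanosome protein, by 0.79. PTGES3, the p23 co-chaperone of HSP90, was at 10.49 and 10.58 without and at 9.50 and 9.82 with induction, and it fell by 0.88. TNPO3, a nuclear import receptor, fell by 0.70, COPS6, a subunit of the COP9 signalosome, fell by 0.68, DMC1, the meiotic recombinase, fell by 0.74 and TFAP2B, a transcription factor, fell by 0.70.

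The 57 genes that moved over 1.5-fold the same way in both pairs and still missed the threshold include some with large differences. DDIT4, an mTORC1 inhibitor induced by stress and glucocorticoid, was at 5.77 and 5.65 without and at 7.15 and 7.59 with induction, a change of 1.66 with a standard error of 0.50 (adjusted p = 0.216). SLFN11, a replication stress gene, was at 1.15 ± 0.46, and CKB, the brain creatine kinase, at 0.94. IKZF2, an Ikaros family factor, was at -0.92 and SLC1A4, an amino acid transporter, at -0.81. The demethylase genes KDM5B and KDM3A were at 0.89 and 0.74, and the glucose transporter gene SLC2A1 at 0.64. Adjusted p for these 8 ran from 0.0569 to 0.478. The 5 genes over 1.5-fold in opposite directions were MEST, PLA2G10, RNVU1-6, LOC399975 and ANKRD45. MEST, for example, was 0.64 in pair 1 and -0.79 in pair 2. These genes, those of the 57, and AHR, CD80, CXADR, CYTH1, FOSB, GPR183, IDO2, RIGI and ROCK1 were picked out after their values were seen.

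The change on induction at time point 2 differed from that at time point 1 in 0 of 18417 genes by limma. At an unadjusted p under 0.05 there were 500, and trend and robust options also gave 0. This test takes its spread from U-H01 alone. MPZL2 had the pairs furthest apart among the 15 largest rises, 1.33 and 2.45, with an adjusted p of 0.999. Between the time points limma called 0 genes, while 787 had an unadjusted p under 0.05 and trend and robust options called 0. Of the 112 genes, 75 had the larger difference in pair 2, 50 of 77 rises and 25 of 35 falls. A larger difference in pair 2 was seen in 9408 of all 18417 genes. Differences of both pairs correlated at 0.37 across genes, which share their arrays and are no replicates.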

How the data were processed

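Expression of HBL-1 was read from whole-transcript arrays. The authors deposited 1 table of log2 values for all 12 arrays. The submitters' processing notes name Partek and RMA; their versions were not given in the sources used here. Array medians lay between 5.79 and 5.88, and the number of arrays limits the precision. Of 33297 probe sets 19460 have 1 gene symbol, and the probe set with the highest mean over all 12 arrays stands for a gene, leaving 18417 genes. Of these genes 769 have several probe sets. limma 3.58.1 (R 4.3.3) was fitted to all 12 arrays with population, time point within line and induction within line. In this fit U-H01 enters only through the spread, apart from its part in the choice of probe sets. Un1 with D1 and Un2 with D2 are paired by the labels' time points, and their deviations correlate at 0.098. P-values are two-sided, with Benjamini-Hochberg adjustment over all genes. Members and gene lists were chosen with earlier results of these data known. Genes named are the NF-kB subunits, the 15 largest rises and falls, called list members, other called genes, and up to 4 members of a described list by p. Alternatives were fits with other pairing, spread, scaling, filters or probe sets, and without each array.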

Additional observations from a re-analysis of the deposited data

How the results depend on the processing

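The count of 112 (77 rose, 35 fell) lay between 80 and 131 without the replicate block (131), with a replicate block for every pair of both lines (90), under trend and robust options, quantile normalization, median centring, the mean over probe sets and above-median probe sets only. With HBL-1 fitted alone it was 945 (529 rose, 416 fell), and without the 4 U-H01 arrays labelled induced 322 (211 rose, 111 fell). Testing every probe set, also those with several or no symbols, gave 38 (22 rose, 16 fell), so the share that rose was 57.9%, and 56% for HBL-1 alone, against 68.8%. With above-median probe sets only, 51 rose, and 93 in place of 146 genes moved past 1.5-fold the same way in both pairs, with fewer genes tested. Without 1 array the count ranged from 8 to 15, with 6 to 8 rises and 2 to 7 falls. Each of the 112 kept its direction wherever it was tested, 48 not being tested among above-median probe sets. Without 1 array this was fixed in advance, since their sides did not overlap. Fits that altered only the pairing or the spread left the HBL-1 changes as they were. Quantile normalization lost the calls of CELF2, ASRGL1, SNORD1A and DPY19L2P2. Median centring lost those of PTPN11, PIM1, SNORD1A and DPY19L2P2. REL passed in 2 of these fits, HBL-1 alone (adjusted p = 0.00547 by limma, on 1 residual degree of freedom) and without the 4 U-H01 arrays labelled induced (0.0477), and its adjusted p reached 0.737 without Un1 or D1. Other changes of count were not traced to a cause: the cause was not tested. Signal over background was not analysed here.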
